A study of Mus musculus with 21 samples.

Results

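The 40 genes described here are p53 targets, regulators of p53 and genes that sense or repair DNA damage. They were chosen by symbol, among them p53 itself (Trp53), the cyclin gene Ccng1, the death effector gene Bax and the damage kinase gene Atm, and all 40 were found among the 22050 genes of the expression table. For 39 of them expression was high enough to be tested. The question put to these genes was whether induction of p16 in epidermal keratinocytes comes with a p53 response.

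Expression was measured by mRNA-seq in 4 keratinocyte samples of the genotype K5-rtTA/tet-GFP/tet-p16 (p16) and in 4 of the genotype K5-rtTA/tet-GFP (control). Both groups carried K5-rtTA, which makes the doxycycline-dependent activator under the keratin 5 promoter, and both carried tet-GFP, so that they differed in the human p16 transgene (tet-p16). The mice were of a mixed FVB, C57Bl and 129sv background, began doxycycline at 3 weeks of age and received it for 6 months. Each sample held about 80000 GFP+ cells of the dorsal skin pooled from 3 mice, after cells that stained for CD140a, CD45 or CD31 had been gated out. Cells were sorted for GFP, which doxycycline switches on together with p16, and not for p16 itself, and the share of sorted cells that held p16 protein was not measured in these files.

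The p53 protein is held at a low level by Mdm2, which tags it for destruction, and by Mdm4, which blocks its activity. When DNA is damaged, the kinases Atm and Atr, acting in part through Chek2 and Chek1, release p53 from this control, and p53 then raises the transcription of genes that stop the cell cycle, repair DNA, limit oxidative stress or start apoptosis. Mdm2 and Ppm1d are themselves p53 targets and close a feedback loop. In cells entering senescence the p53 pathway, acting through Cdkn1a, and the p16 pathway, acting through Rb, are regarded as a pair of arms that can each halt the cell cycle. Much of p53 control acts on the protein, which mRNA levels do not show.

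Promoter windows of the members were read to show where the sequence that p53 binds lies. RefSeq windows (GRCm38.p6, from 250 bases before to 50 bases after a start site, written 5′ to 3′ on the gene's strand) were at hand for 33 of the 40 members, in 43 windows. Each was searched on both strands for the p53 half-site consensus, a palindrome of 10 bases. A half-site stood in 11 of the 43 member windows (25.6%), which belong to 10 genes, and in 8.36% of all 32851 promoter windows. Many members were chosen as known p53 targets, so the higher share is no separate result about them. Both Aen windows are among the 11 and overlap, so the same site may be counted in each. A full site, 2 half-sites at most 13 bases apart, was found in no member window and in 0.0731% of all windows. Shown are the windows of both members that passed the test, Trp73 at its upstream and its internal start site and Gadd45g, then 3 textbook p53 targets picked because their windows hold a half-site, and last the upstream of 2 windows of Cdkn1a, the p53 target that is no member but is read beside the members further on. Capitals mark half-sites.
Trp73, internal start, chr4:154097124-154097423, minus strand: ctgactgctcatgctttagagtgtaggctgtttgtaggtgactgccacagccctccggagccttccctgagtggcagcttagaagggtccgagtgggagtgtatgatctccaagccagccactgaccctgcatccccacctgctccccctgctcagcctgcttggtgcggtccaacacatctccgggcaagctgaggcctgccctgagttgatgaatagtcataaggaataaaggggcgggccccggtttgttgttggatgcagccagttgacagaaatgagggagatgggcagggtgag
Trp73, upstream start, chr4:154139826-154140125, minus strand: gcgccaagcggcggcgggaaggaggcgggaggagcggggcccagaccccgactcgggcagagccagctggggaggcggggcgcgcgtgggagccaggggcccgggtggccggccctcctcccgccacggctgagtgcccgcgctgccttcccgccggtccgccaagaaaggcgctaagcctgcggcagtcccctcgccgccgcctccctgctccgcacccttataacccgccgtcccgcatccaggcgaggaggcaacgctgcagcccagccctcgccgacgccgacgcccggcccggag
Gadd45g, chr13:51846425-51846724, plus strand: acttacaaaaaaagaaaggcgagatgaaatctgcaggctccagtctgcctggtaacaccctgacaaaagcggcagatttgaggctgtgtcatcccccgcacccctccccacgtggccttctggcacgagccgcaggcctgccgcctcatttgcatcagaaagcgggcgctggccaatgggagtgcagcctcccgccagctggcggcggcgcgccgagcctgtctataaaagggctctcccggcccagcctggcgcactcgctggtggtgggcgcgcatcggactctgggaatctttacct
Mdm2, chr10:117710709-117711008, minus strand: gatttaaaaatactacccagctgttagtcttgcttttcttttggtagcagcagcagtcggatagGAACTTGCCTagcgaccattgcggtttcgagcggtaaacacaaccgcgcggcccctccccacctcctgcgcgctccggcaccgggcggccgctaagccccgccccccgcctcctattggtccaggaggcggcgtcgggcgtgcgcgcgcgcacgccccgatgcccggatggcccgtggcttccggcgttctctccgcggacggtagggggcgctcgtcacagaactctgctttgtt
Ccng1, chr11:40755237-40755536, minus strand: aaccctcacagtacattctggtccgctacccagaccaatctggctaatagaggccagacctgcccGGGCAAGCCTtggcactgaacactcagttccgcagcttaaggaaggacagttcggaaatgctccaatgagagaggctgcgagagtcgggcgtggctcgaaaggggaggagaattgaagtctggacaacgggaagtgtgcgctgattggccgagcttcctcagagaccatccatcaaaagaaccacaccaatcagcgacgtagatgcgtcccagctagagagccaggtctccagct
Bax, chr7:45466849-45467148, minus strand: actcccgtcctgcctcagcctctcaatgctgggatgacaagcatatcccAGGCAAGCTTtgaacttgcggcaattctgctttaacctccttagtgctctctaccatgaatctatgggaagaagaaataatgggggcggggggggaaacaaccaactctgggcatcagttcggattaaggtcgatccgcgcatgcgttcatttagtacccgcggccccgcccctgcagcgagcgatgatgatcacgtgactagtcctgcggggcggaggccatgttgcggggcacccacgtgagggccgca
Cdkn1a, chr17:29090729-29091028, plus strand: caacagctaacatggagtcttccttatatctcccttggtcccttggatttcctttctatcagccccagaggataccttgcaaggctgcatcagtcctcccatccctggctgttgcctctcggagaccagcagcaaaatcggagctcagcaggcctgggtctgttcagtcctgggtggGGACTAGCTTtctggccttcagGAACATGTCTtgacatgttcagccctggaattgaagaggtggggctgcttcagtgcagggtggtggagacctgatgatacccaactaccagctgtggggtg
The windows of Trp73 and Gadd45g held no half-site, and those of Mdm2, Ccng1 and Bax held 1 each. Of the 14 core targets with a window, 8 had a half-site and 6 had none (Bbc3, Btg2, Fdxr, Phlda3, Plk2 and Sesn2). None of these 14 passed the limma test, so half-sites cannot be set against calls among them. The upstream Cdkn1a window held a full site, and its second window, chr17:29093519-29093818, held no half-site. A match describes letters in the window and does not show binding, and these windows do not cover introns or distant sites.

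The control libraries held 1760953 to 3414362 reads on genes and the p16 libraries 2884544 to 3202975. Basal keratinocyte markers were high in every sample, with a summed normalised read count of 35120 to 55670 in controls and 35450 to 39520 in p16 samples over 9 genes. Of the genes whose products were used for gating, Pdgfra (CD140a) lay at 3.5 or less, Ptprc (CD45) at 1.6 or less and Pecam1 (CD31) at 6.4 or less, and 4 of 8 endothelial markers were at 0 in every sample. The summed endothelial list was low but did not overlap between the groups, with 2.6 to 5.2 in controls and 6.3 to 9.8 in p16 samples. Other fibroblast markers were present and did not move together. Dcn was higher and Vim lower in every p16 sample, and of the 8 tested 4 had a log2 fold change above 0 and 4 below. Thy1, also present, is on the T cell list as well. Reads of the human transgene (hsCDKN2A) gave 0.7, 1.3, 2.5 and 1.5 in controls and 1.6, 10.1, 16 and 7.4 in p16 samples, so that the library labelled p16 replicate 1, with 2 reads, lay within the control range (exact two-sided permutation test, p = 0.0571, smallest possible 0.0286). For Cd34 (8.8) and Dcn (85.6) the library labelled p16 replicate 1 lay within the range of the other p16 libraries and outside that of the controls. Endogenous mouse Cdkn2a was between 0 and 5.5 in all samples. The GFP reporter (EGFP) was at 4152 to 5913 in controls and 3162 to 3979 in p16 samples (limma adjusted p = 0.0167). The library of p16 replicate 4 stood apart from the other p16 libraries, with a chi-square per degree of freedom of 6.75 to 8.96 against each of them and 3.05 to 3.31 among the others, and replicate 3 of both groups carries a differently worded library protocol in its label. Counts of called members are therefore also given without each of these.

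Of the 39 tested members, 1 rose and 1 fell in p16 samples (limma on log2 values, adjusted p under 0.05 over 12782 genes), and 37 did not pass the test. This is 5.13% of the members, beside 3.86% of all tested genes (1.24% called higher and 2.61% called lower). The gene that rose was Trp73, a member of the p53 family, and the gene that fell was Gadd45g, a growth arrest and stress gene. In bulk samples such as these, fewer cells of a type and less RNA per cell cannot be told apart. None of the 20 members taken as core p53 targets was called by limma or edgeR, with 2 higher and 1 lower at an unadjusted p under 0.05 in limma, while DESeq2 called 1 of them, Sesn2. Without the library labelled p16 replicate 1 only Trp73 was called among the members, and without replicate 3 of both groups none was, with 7 at an unadjusted p under 0.05 (limma). The median log2 fold change was 0.04 over the tested members, 0.075 over the 20 core targets and -0.003 over all tested genes. At an unadjusted p under 0.05 there were 5 members higher and 2 lower, 17.9% of the members beside 15.9% of all tested genes.

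**Figure D1:**
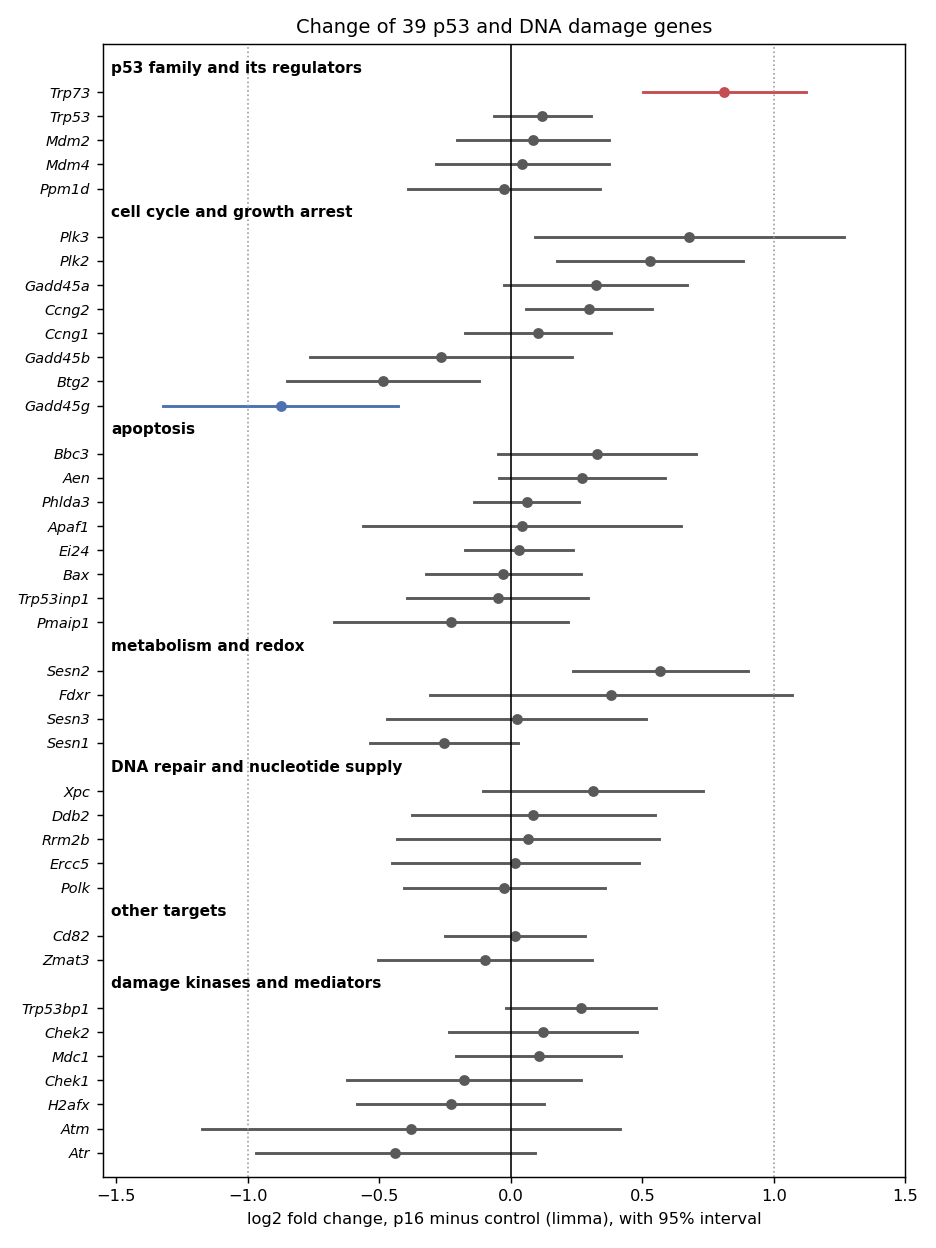
Log2 fold change (p16 minus control, limma) of the 39 tested members, grouped by role, with the 95% interval as a bar; dotted lines mark a 2-fold fall and a 2-fold rise. Trp73 (red) and Gadd45g (blue) passed the adjusted test, and the intervals of 32 of the 39 genes include 0.

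The intervals show how large a change these samples leave room for. Among the 20 core targets, 19 had a 95% interval that ended below a 2-fold rise and 13 one that ended below a 1.5-fold rise. Fdxr, the mitochondrial ferredoxin reductase, was the exception, with an upper bound of 2.10-fold at 6 to 26 reads per library. Of all 39 tested members, 36 had an interval below a 2-fold rise and 37 an interval above a halving. The median standard error of the members was 0.17 on the log2 scale, and their spread between replicates (median SD 0.23) was close to that of all tested genes (0.25).

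In each library the core targets were also read together, as the median over 20 genes of log2(value + 1) minus the control mean. This median was -0.04, 0.12, 0.05 and -0.12 in the control libraries and 0.07, 0.04, 0.08 and 0.20 in the p16 libraries. The groups overlapped, since control replicate 2 lay above 3 of the 4 p16 libraries and only p16 replicate 4 lay above every control. That library was at the edge of its group more often than the others, being the lowest p16 library for 15 of the 39 genes and the highest for 14.

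Within the p53 family, Trp73 was the gene that changed. Trp73 encodes p73, a homologue of p53 that binds similar sites. Its normalised read count was 83.1, 86.0, 64.3 and 70.3 in control samples and 125, 117, 164 and 131 in p16 samples. The 4 p16 values all lay above the 4 control values, with the highest in replicate 3. The rise was 1.75-fold (log2 fold change 0.81 ± 0.14 SE, 95% interval 1.41-fold to 2.17-fold, limma adjusted p = 0.00547). Trp73 passed the test with each sample left out in turn (adjusted p 0.00618 to 0.0214), but without replicate 3 of both groups the log2 fold change was 0.64 and the adjusted p 0.061. The gene spans chr4:154056253-154140208 on the minus strand (GRCm38, GENCODE) and overlaps the antisense gene Trp73os, which lies within it on the plus strand, spans its internal start and begins 37226 bases from the 3′ end of Trp73. Reads of both cannot be told apart there where counting ignores strand. The counts do not tell transcripts from the upstream and the internal start apart.

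Trp53 itself had values of 463, 415, 436 and 449 in controls and 479.7, 462, 469.9 and 504 in p16 samples. Control replicate 1 lay just above p16 replicate 2, and the groups otherwise did not overlap. The difference was 1.09-fold (95% interval 0.957 to 1.23, limma adjusted p = 0.556). Trp63, the third family member and a master regulator of keratinocytes, was at 620.3 to 725 in controls and 699.6 to 838 in p16 samples, a log2 fold change of 0.09 ± 0.09 (SE, adjusted p = 0.726).

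The negative regulators of p53 did not pass the test, which only 3.86% of all tested genes passed. Mdm2, the E3 ligase that p53 itself induces, was at 131, 129.6, 102 and 91.7 in controls and at 119, 116, 119.7 and 122 in p16 samples. All p16 values fell inside the control range, and their SD (2.23) was well under that of the controls (19.9). The fold change of Mdm2 was 1.06 (95% interval 0.869 to 1.29, adjusted p = 0.838). Mdm4, its partner, ranged from 81.0 to 100.1 in controls and from 71.5 to 113 in p16 samples, with the lowest value in p16 replicate 4. Ppm1d, the phosphatase Wip1 that switches off p53 and its kinases, ranged from 45.3 to 61.8 and from 41.9 to 56.8.

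**Figure D2:**
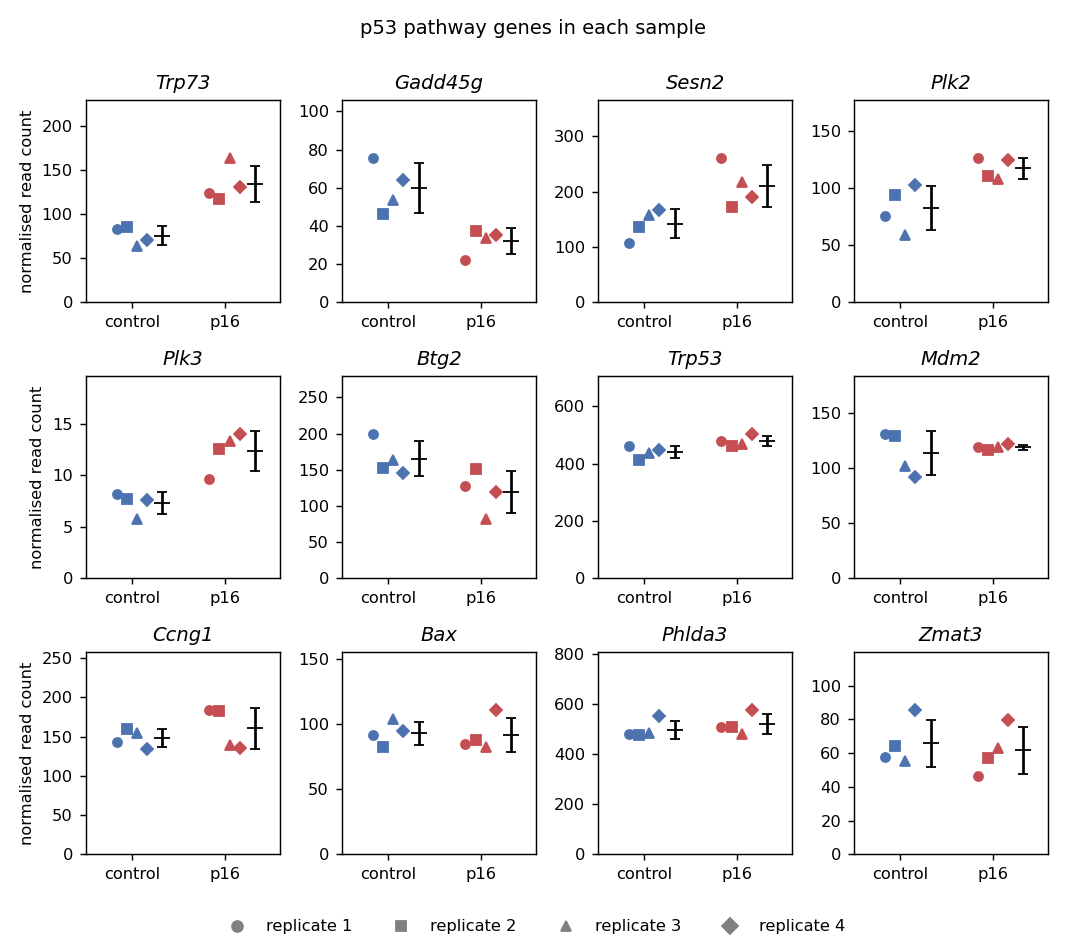
Normalised read count (y axis, from 0) of 12 members in each of the 4 control samples (blue) and 4 p16 samples (red); the marker shape gives the replicate and the black bar the mean ± SD. Trp73, Sesn2, Plk2 and Plk3 have every p16 value above the controls, Gadd45g has every p16 value below them, and the groups overlap for the other 7 genes.

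Among the 8 tested growth arrest members, 3 were higher and 2 lower at an unadjusted p under 0.05, which 15.9% of all tested genes passed, and Gadd45g alone passed the adjusted test. The excess over that share was not tested. Gadd45g encodes a small stress protein that binds cell cycle kinases and feeds into p38 signalling. Its values were 75.7, 46.2, 53.5 and 64.2 in controls and 22.4, 37.5, 33.7 and 35.4 in p16 samples. Every p16 value lay below every control value, and the lowest was that of the library labelled p16 replicate 1. Gadd45g fell by 0.87 ± 0.21 (SE) on the log2 scale, to 0.545-fold (95% interval 0.400 to 0.744, limma adjusted p = 0.0299). The call held in 3 of the 8 fits with 1 sample left out, those without control replicate 2, p16 replicate 2 or p16 replicate 4, and was lost in the others, the highest adjusted p being 0.119, without control replicate 1. Gadd45g lies at chr13:51846678-51848468 on the plus strand and overlaps no other annotated gene.

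The other GADD45 genes, which respond to DNA damage and other stress, did not pass the test, beside 3.86% of all tested genes that did. Gadd45a, the classical p53 target of the family, was at 60.8, 69.3, 71.8 and 48.9 in controls and 90.3, 81.2, 64.7 and 77.3 in p16 samples. Replicate 3 of the p16 samples lay within the control range. The fold change of Gadd45a was 1.25 (95% interval 0.983 to 1.59, adjusted p = 0.353). Gadd45b ranged from 20.8 to 35.1 in controls and from 19.2 to 28.8 in p16 samples, a fold change of 0.832 (adjusted p = 0.654). Rprm, the G2 arrest gene Reprimo, was not tested, since it had 1 read in 1 p16 sample and none in the other 7.

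The polo-like kinases Plk2 and Plk3, stress-induced kinases of the cell cycle, had every p16 value above the controls but did not pass the adjusted test. Plk2 was at 75.7, 93.7, 58.5 and 102 in controls and at 126, 110.1, 108 and 124 in p16 samples. The narrowest gap of Plk2 lay between control replicate 4 and p16 replicate 3. The log2 fold change was 0.53 ± 0.16 (SE, limma adjusted p = 0.103). Plk3 was low, at 8.2, 7.7, 5.8 and 7.6 in controls and 9.6, 12.5, 13.3 and 14.0 in p16 samples, from 5 to 17 reads per library. With so few reads its interval was wide, from 1.06-fold to 2.40-fold (adjusted p = 0.230), and Plk3 overlaps Tctex1d4 on the opposite strand, whose reads cannot be told apart where counting ignores strand.

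Among the remaining arrest genes, Btg2 and Ccng2 leaned in opposite directions. Btg2, an antiproliferative p53 target that also behaves as an immediate early gene, was at 199.6, 153, 164 and 145 in controls and 127, 151, 81.6 and 119 in p16 samples. Only p16 replicate 2 lay within the control range. The log2 fold change of Btg2 was -0.49 ± 0.17 (SE, adjusted p = 0.154). Ccng2, a cyclin linked to cell cycle exit and more often to FoxO than to p53, was at 220.3, 221, 196 and 246 in controls and 293, 282, 229 and 285 in p16 samples, a fold change of 1.23 (adjusted p = 0.188). Ccng1, a p53 target in many tissues, was at 143, 159, 155 and 134 in controls and 184, 182, 139 and 136 in p16 samples. For Ccng1, p16 replicates 1 and 2 lay above every control and replicates 3 and 4 within the control range (1.08-fold, 95% interval 0.887 to 1.30, adjusted p = 0.778).

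None of the 8 apoptosis genes had an unadjusted p under 0.05, beside 15.9% of all tested genes, and their median log2 fold change was 0.04. A list of 8 genes is short for such a count. Bax, the pore-forming effector of mitochondrial apoptosis, was at 92.0, 82.1, 104 and 94.7 in controls and 84.8, 88.2, 82.5 and 111 in p16 samples, a fold change of 0.981 (95% interval 0.800 to 1.20). Of its p16 values all but that of replicate 4 lay inside the control range. Phlda3, an inhibitor of Akt and a strong p53 target, was at 481, 476, 485 and 552 in controls and 508, 511, 483 and 578 in p16 samples (1.04-fold, 0.908 to 1.20). Its highest value in each group was that of replicate 4. The BH3-only genes, whose products switch on Bax, leaned apart: Bbc3 (Puma) ranged from 39.7 to 65.5 in controls and 57.6 to 76.0 in p16 samples (1.25-fold, adjusted p = 0.395), and Pmaip1 (Noxa) from 19.3 to 28.2 and 19.2 to 22.2 (0.854-fold, adjusted p = 0.669).

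The other apoptosis members stayed within a fold change of 0.966 to 1.21. Trp53inp1, which promotes p53 phosphorylation, was at 221, 139, 137 and 124 in controls and 149, 139.8, 162 and 134 in p16 samples, with control replicate 1 far above the rest. Aen, an apoptosis-enhancing nuclease, ranged from 61.6 to 81.0 in controls and from 78.9 to 108 in p16 samples (1.21-fold, adjusted p = 0.407). Ei24 ranged from 377 to 412 and from 366 to 466, and Apaf1, the core of the apoptosome, from 10.9 to 32.1 and from 18.9 to 20.3. None of these 4 genes passed the test, beside 3.86% of all tested genes that did.

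Sestrins and redox genes came next. Sesn2, which represses mTORC1 and is induced by p53 and by ATF4, was at 108, 136, 157 and 167 in controls and 261, 173, 217 and 191 in p16 samples. All p16 values of Sesn2 lay above all control values, the highest being that of the library labelled p16 replicate 1. The fold change was 1.48 (95% interval 1.18 to 1.87, limma adjusted p = 0.0604), just outside the threshold. Sesn2 passed it in 4 of 15 other settings, without p16 replicate 2, without p16 replicate 4, after scaling to equal totals and with DESeq2 (lowest adjusted p 0.0289), and the highest adjusted p of the 15 was 0.201. Sesn1, the sestrin most closely tied to p53, leaned the other way, from 134 to 198 in controls and from 127 to 144 in p16 samples (0.838-fold, adjusted p = 0.371). Sesn3, a FoxO target, ranged from 19.3 to 33.4 and from 23.0 to 32.0, and Fdxr from 6.7 to 12.8 and from 8.8 to 21.4.

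Repair members that p53 induces did not pass the test, and each overlapped between the groups. Of all tested genes only 3.86% passed, and 4.19% had every p16 value above the controls and 5.63% every one below. A list of 5 genes is short for such a count. Ddb2 and Xpc, which recognise ultraviolet lesions in chromatin, ranged from 26.0 to 31.2 and 36.7 to 61.6 in controls and from 21.9 to 40.3 and 46.8 to 77.3 in p16 samples. Both were highest in p16 replicate 4. Rrm2b, the p53-induced ribonucleotide reductase subunit, ranged from 16.8 to 34.9 and from 25.5 to 31.0. Ercc5, the excision nuclease Xpg, ranged from 53.5 to 73.4 and from 38.6 to 89.0, and Polk, a translesion polymerase, from 37.8 to 56.5 and from 37.0 to 51.4. Adjusted p-values of these 5 genes ran from 0.486 for Xpc to 0.985 for Ercc5. The remaining targets were similar: Zmat3, a p53-induced RNA-binding protein, was at 55.1 to 85.6 in controls and 46.4 to 79.8 in p16 samples, and Cd82, a tetraspanin, at 131 to 150.2 and 124 to 172.

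None of the 7 damage kinases and mediators passed the test either, beside 3.86% of all tested genes, and the median of their log2 fold changes was -0.18. Atm, the kinase that answers double-strand breaks, was at 38.6, 16.7, 13.4 and 19.9 in controls and 12.8, 27.3, 19.5 and 8.2 in p16 samples. Its spread was the widest of the group, with an interval from 0.443-fold to 1.33-fold. Atr, the kinase that answers stalled replication, was at 54.2, 56.5, 40.9 and 39.7 in controls and 34.4, 39.0, 51.4 and 20.6 in p16 samples (0.738-fold, adjusted p = 0.425). The lowest value of both kinase genes was that of p16 replicate 4, and without this library the log2 fold change was -0.10 for Atm and -0.20 for Atr. Chek1 ranged from 23.7 to 33.4 in controls and from 21.4 to 31.2 in p16 samples, and Chek2 from 41.3 to 58.6 and from 44.0 to 55.9.

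H2afx encodes the histone H2AX, whose phosphorylated form marks breaks and is not measured by mRNA. H2afx was at 99.4, 89.8, 104 and 157 in controls and 86.4, 85.9, 106 and 98.7 in p16 samples (0.853-fold, adjusted p = 0.565). Mdc1, which binds that mark, ranged from 64.3 to 87.1 and from 72.4 to 92.1. Trp53bp1, which encodes the repair mediator 53BP1, was at 128, 104, 103.6 and 90.1 in controls and 132, 128, 139 and 111 in p16 samples. Its 3 highest p16 values lay above the highest control (1.20-fold, 95% interval 0.988 to 1.46, adjusted p = 0.348), and Trp53bp1 overlaps Tubgcp4 on the opposite strand.

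**Figure D3:**
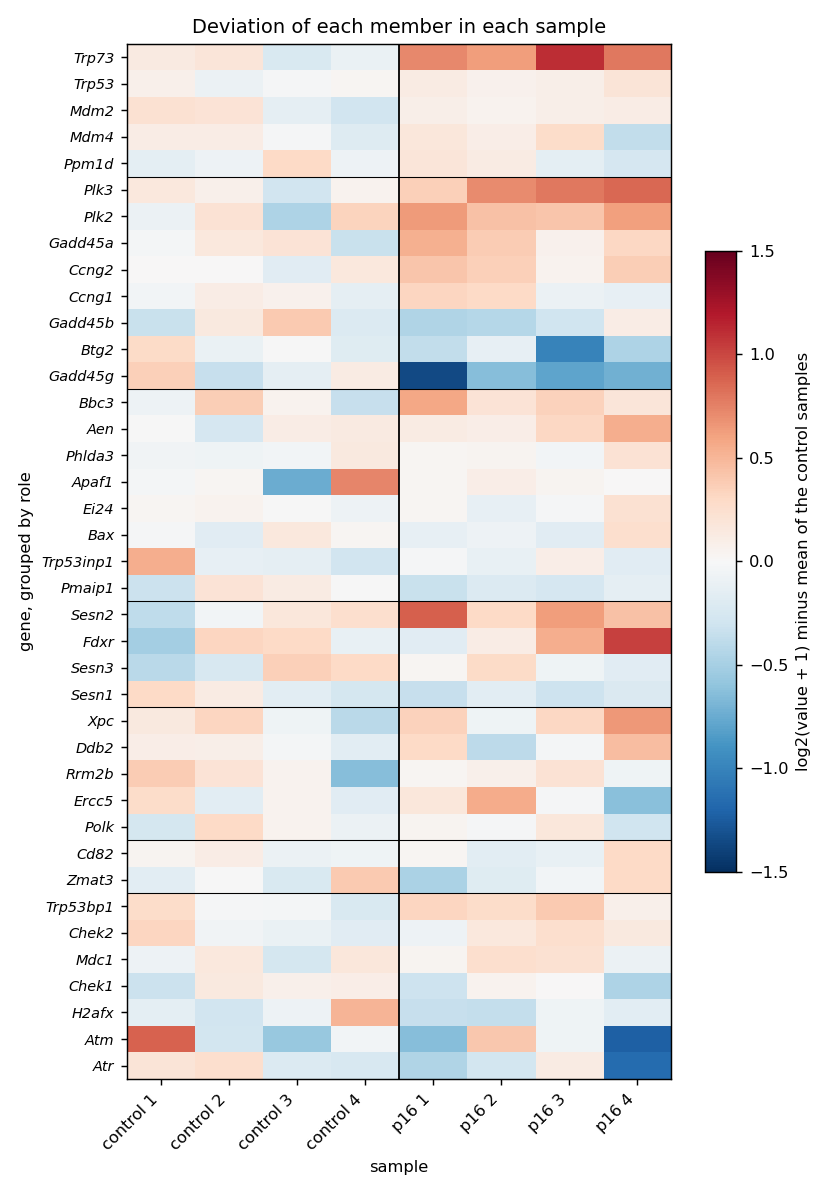
Each cell gives log2(value + 1) of a tested member in a sample minus the mean of the 4 control samples (red higher, blue lower), with lines between the roles and between the groups. Trp73, Plk3, Plk2 and Sesn2 are red in all 4 p16 samples, Gadd45g is blue in all 4, and p16 replicate 4 is the darkest blue for Atm and Atr. Other genes whose groups overlap also lie on the same side in all 4 p16 samples, among them Ccng2 and Bbc3 above the control mean and Btg2 and Sesn1 below it.

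The groups did not overlap for 5 of the 39 members. In 4 of them, Trp73, Sesn2, Plk2 and Plk3, every p16 value lay above every control value (10.3% of the members, beside 4.19% of all tested genes), and in Gadd45g every p16 value lay below (2.56%, beside 5.63% of all tested genes). These 5 genes belong to 3 roles, with Trp73 in the p53 family, Plk2, Plk3 and Gadd45g in growth arrest and Sesn2 in stress metabolism. Of the 5, Sesn2 and Plk2 are among the 20 core targets.

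Further p53 targets that are not members were read from a second list of 30 genes. None of the 29 tested passed the adjusted test in limma, edgeR or DESeq2, 3 were higher and 4 lower at an unadjusted p under 0.05, and the median log2 fold change was 0.04. Cdkn1a, which encodes the cell cycle inhibitor p21 and is the best known p53 target, was at 1068, 925, 1267 and 1259 in controls and 766, 829, 1044 and 933 in p16 samples. The p16 values of replicates 1 and 2 lay below every control and those of replicates 3 and 4 within the control range. The log2 fold change of Cdkn1a was -0.34 ± 0.12 (SE, limma adjusted p = 0.174), so that it leaned lower and not higher. Among 18 tested regulators and partners of p53, none was called by these 3 tools and 3 were lower at an unadjusted p under 0.05. Over all tested genes 3.86% were called and 15.9% had an unadjusted p under 0.05 in limma. At such a share lists of this size would hold few calls, so their absence is not a result about the lists.

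Genes that sense and repair damage gave no call in limma, edgeR or DESeq2 either. Beside each list below stand the shares of all tested genes in limma, 3.86% called and 15.9% at an unadjusted p under 0.05. Over 21 checkpoint and sensor genes the median log2 fold change was -0.10, over 20 double-strand break repair genes -0.25, and over 22 excision repair genes -0.003, with 1, 3 and 2 genes lower and none higher at an unadjusted p under 0.05. Genes of S phase and mitosis, many of which rise only in dividing cells, had a log2 fold change below 0 in 23 of 25 cases, with a median of -0.28 and 7 genes lower at an unadjusted p under 0.05, but none passed the adjusted test by any of the 3 tools. Mki67, the proliferation marker Ki67, was at 154, 259, 200.4 and 208 in controls and 121, 216, 210.1 and 53.4 in p16 samples (adjusted p = 0.396). The lowest was again p16 replicate 4. Immediate early genes, to which Btg2, Plk2 and Plk3 are related in their fast response to stimuli, had a median of -0.06, with none of 25 called by the 3 tools and 1 at an unadjusted p under 0.05.

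**Figure D4:**
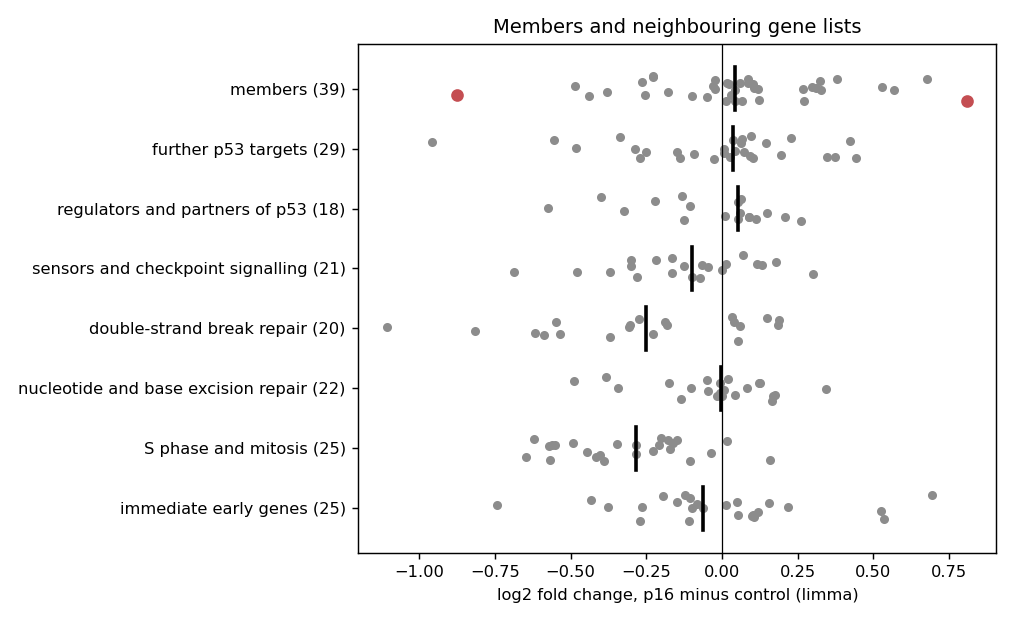
Log2 fold change (x axis, p16 minus control, limma) of each tested member and of each tested gene in 7 neighbouring lists, with the number of tested genes in brackets and the median as a black line. The 2 red points are Trp73 and Gadd45g, and no gene of the other lists passed the adjusted test.

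Markers of other cell types of the skin moved with the groups beside these values. Of the 11 tested hair follicle stem cell markers, limma called 7 lower (Cd34, Sox9, Lhx2, Nfatc1, Tcf7l1, Tcf7l2 and Fgf18, log2 fold changes of -3.74 to -0.51) and none higher. In 1 marker of this list the change went the other way (log2 fold change 0.73, unadjusted p under 0.05). Beside this list and those that follow, 2.61% of all tested genes were called lower. The summed value of the hair follicle list was 3385 to 4401 in controls and 1585 to 2970 in p16 samples. Cd34, the defining marker of the bulge, was at 122 to 239 in controls and 8.0 to 16.4 in p16 samples. Of the 9 tested sebaceous gland markers, 7 fell (Scd1, Mgst1, Awat2, Plin2, Soat1, Cidea and Elovl3, -3.04 to -1.21), with sums of 1703 to 2041 and 628 to 942. Of the 7 tested melanocyte markers, Dct and Tyrp1 fell, with sums of 138.5 to 549 and 51.7 to 148. Without replicate 3 of both groups limma called Cd34, Lhx2 and Tcf7l1 of the hair follicle list, 6 sebaceous gland markers and Dct. With all samples edgeR called 6, 6 and 1 markers of these 3 lists and DESeq2 called 8, 6 and 4.

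Differentiated keratinocyte markers changed in both directions, with Lor and Tgm3 higher and Ivl and Sbsn lower among 12 tested, and of the basal markers Krt15 fell (limma). Without replicate 3 of both groups, a setting with fewer samples, only Lor and Tgm3 of these markers were called. DESeq2 on all samples called 7 markers of the differentiated list. Among 8 tested fibroblast markers Dcn rose, with 2.6 to 10.7 in controls and 36.2 to 203 in p16 samples, and Vim fell, while Lum was at 0 everywhere. The summed fibroblast list ran from 793 to 999 in controls and from 863 to 3150 in p16 samples, most of it Thy1, which reached 2908 in p16 replicate 4. Thy1 is a T cell marker too and is on both lists. No T cell, Langerhans and myeloid or endothelial marker was called by the 3 tools. The part of these shifts in the values of Trp73 and Gadd45g was not tested.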

How the data were processed

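Epidermal keratinocytes were profiled as 4 control and 4 p16 samples, grouped by their labels, and 13 further samples of the series were not analysed here. The authors prepared 3′ libraries by a CEL-Seq protocol and aligned reads to GRCm38 with TopHat2; the submitters' processing notes also name HTSeq and DESeq2. In the deposited table each signal value is a gene's read count over the size factor of its sample, kept to 1 decimal (called normalised read count here). Further columns with the authors' group means, log2 ratios, test statistics and p-values were not used. At least 99.9% of values were whole multiples (within 0.05) of what 1 read is worth, which gave back the reads for the count tests. Whether molecular identifiers were collapsed and whether counting used strand is not given in the sources used here.

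Genes whose mean value reached 1 were tested on log2(value + 1) with limma 3.58.1 (R 4.3.3, eBayes with trend, two-sided), with Benjamini-Hochberg adjustment over 12782 genes. Fold changes are on that scale and understate changes of low genes. A gene was called at an adjusted p under 0.05. Alternatives were a pseudocount of 0.1, no filter, a replicate block, each sample left out, replicate 3 of both groups left out, equal totals, and edgeR 4.0.16 and DESeq2 1.42.0 on recovered reads. The limma, edgeR and DESeq2 fits of all 8 samples were tested on simulated data, where they called 86.5%, 88.5% and 85.0% of the changed genes over 12759, 10674 and 14962 genes, with 4.95%, 5.35% and 7.1% of calls false. How far these shares hold for the members in the real samples, among them genes with few reads or with small fold changes, was not tested. Whether they hold with a library that stands apart from its group, as p16 replicate 4 does, was not tested either. Where 2 rows shared a symbol, the row with the higher mean was used. All 40 members are named. Of the other lists, every gene called by limma is named, and Cdkn1a, Trp63, Cdkn2a, Mki67, Cd34 and Dcn whatever their values. Genes of the marker lists that only DESeq2 called are counted but not named. Pdgfra, Ptprc, Pecam1, Lum, Thy1, Eda2r, Tyms, Hipk2 and Blm were named after their values were seen. The members and lists were chosen with earlier results of these data known. The authors obtained the samples of these groups in 3 independent experiments, and the experiment of each sample was not part of the fit. p-values therefore measure the spread between pools of 3 mice, with any difference between experiments in it.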

Additional observations from a re-analysis of the deposited data

Results flagged for a closer look

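In 3 of 78 groups of 4 samples, 1 sample lay far from the other 3 of its group (Dixon's ratio above its 95% limit, which chance alone passes in about 1 of 20 groups). Trp53inp1 was at 221.1 in control replicate 1, where the other controls were at 124 to 139. Phlda3 was at 551.5 in control replicate 4, where the others were at 476 to 485. Ppm1d was at 61.8 in control replicate 3, where the others were at 45.3 to 47.5. None of the 3 genes was called with or without that sample.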

How the results depend on the processing

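The log2 fold changes of the 39 members were recomputed under 15 other settings, 585 values in all. In 536 the direction and the side of the threshold stayed as reported, in 7 a call was lost (Trp73 once, Gadd45g 6 times), in 4 Sesn2 was newly called, and in 38 a value of 1 of 15 uncalled genes took the other sign, the largest 0.20 in size. With 1 sample left out, 1 to 2 members were called higher and 0 to 1 lower, beside 69 to 196 genes higher and 177 to 343 lower, and 4 to 6 members lay above the controls and 1 to 3 below without overlap. Without the library labelled p16 replicate 1, Trp73 alone was called, and without p16 replicate 4 Trp73, Sesn2 and Gadd45g were. Without replicate 3 of both groups no member was called in limma (0 higher, 0 lower), beside 66 genes higher and 157 lower, and 6 members lay above all controls and 2 below. This setting has fewer samples. Groups with fewer samples separate more easily, and the share of all tested genes without overlap was not computed with samples left out. The counts without overlap in these settings are therefore not read as a result about the members. Scaling to equal totals and DESeq2 each gave 2 members higher. At an unadjusted p under 0.05 there were 5 members higher and 2 lower, beside 897 and 1141 genes. The replicate block gave 1 member higher and 1 lower, the same genes, and 216 genes higher and 392 lower. Samples with the same number correlated at 0.00 to 0.08 in their deviations from the group mean. For replicates 3 and 4 this correlation (0.046 and 0.083) lay above the highest with another number (0.023 and -0.016), and for replicates 1 and 2 below it. All were small, and the main fit did not take the numbers to pair the samples. Whether some of them are paired was not settled. Depth limits the low genes, as Plk3 and Fdxr rested on 5 to 26 reads per library. The cause of these shifts was not tested.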

Other observations

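Some genes of the neighbouring lists had every p16 value below every control value without passing the adjusted test. Eda2r, a death receptor of the TNF receptor family that p53 induces, changed by -0.96 on the log2 scale (limma adjusted p = 0.0952). Tyms, which makes thymidylate for DNA synthesis, by -0.55 (adjusted p = 0.0708). Hipk2, a kinase that phosphorylates p53, was at -0.58 (adjusted p = 0.117), and Blm, the helicase of Bloom syndrome, at -1.10 (adjusted p = 0.119). These genes were picked after their values were seen.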
